A study of Mus musculus with 6 samples.

Results

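The proteasome subunits described here are the 41 genes whose symbols name an alpha subunit of the core (Psma1 to Psma7), a beta subunit (Psmb1 to Psmb10), an ATPase of the regulatory particle (Psmc1 to Psmc6), a non-ATPase protein of that particle (Psmd1 to Psmd14) or an activator (Psme1 to Psme4). They were taken by symbol from 24421 genes, and all 41 were listed in every count file. The samples were 3 mice labelled STIM1 knockout (KO) and 3 labelled wild type (WT), all 1 year old. From each, the Purkinje neuron layer of the cerebellum was microdissected along with the molecular layer. The RNA therefore comes from several cell types together, and markers of Purkinje cells, interneurons, glia and granule cells were all read. The labels name neither the deleted exons of Stim1 nor the cells that lack it. The question set by the design is which transcripts differ between the genotypes in this tissue.

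The proteasome is the protease that degrades proteins tagged with ubiquitin chains. Its barrel-shaped core holds outer rings of alpha subunits, which gate the entrance, and inner rings of beta subunits, of which Psmb5, Psmb6 and Psmb7 carry the active sites. A regulatory particle docks on the core: its base unfolds substrates with a ring of ATPases, and its lid removes ubiquitin. In neurons the proteasome also turns over synaptic proteins, and STIM1 is the sensor of endoplasmic reticulum calcium that opens plasma membrane Orai channels.

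The 41 genes held very few counts. Together they held 493, 390 and 372 counts in KO replicates 1 to 3, against 511, 426 and 485 counts in WT replicates 1 to 3. As a share of all gene counts this was 0.0564% to 0.0645% in KO libraries and 0.0645% to 0.0791% in WT libraries. For KO replicate 3 the share was 0.0564% (Wilson 95% interval 0.0510% to 0.0625%), and for WT replicate 1 it was 0.0791% (0.0725% to 0.0863%). Intervals cover counting error only. The libraries held 659213 to 764839 gene counts in KO and 645994 to 705168 in WT. Uniquely aligned reads numbered 57062801 to 62498451 in KO libraries and 52452927 to 58470106 in WT libraries. Of these reads, 98.8% were assigned to no gene. The sources used here do not give the strand setting of the counting or whether the kit marks strand, so these counts cannot be tied to the mRNA of the genes named, and reads of a member and of a gene on the opposite strand cannot be told apart. In bulk tissue, fewer cells of a type and less RNA per cell cannot be told apart either.

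Stim1 itself had 4, 3 and 2 counts in KO, against 7, 21 and 3 in WT. The groups overlapped (two-sided exact permutation p = 0.3, where 3 against 3 allows no less than 0.1), so these few counts do little to check the labels. Of the tissue's defining markers, all 8 Purkinje genes were tested, with 6 lower and 2 higher in KO and none past the test. Their summed level was 2022 to 2657 CPM (counts scaled to a common library size by TMM, edgeR's normalisation) in KO and 2665 to 3307 CPM in WT. Astrocyte and Bergmann glia markers summed to 489 to 778 CPM in KO and 726 to 890 CPM in WT, granule cell markers to 164 to 230 CPM in KO and 166 to 222 CPM in WT, and molecular layer interneuron markers to 193 to 238 CPM in KO and 237 to 258 CPM in WT. Oligodendrocyte markers summed to 95.1 to 132 CPM in KO and 110 to 127 CPM in WT. Microglia markers stayed at 1.66 to 22.6 CPM in KO and 11.8 to 53.3 CPM in WT, endothelial markers at 3.12 to 23.9 CPM in KO and 5.89 to 17.4 CPM in WT, and all 4 erythrocyte markers were at 0. Y-linked genes were read in KO replicate 3 and WT replicate 3, with 14 and 28 counts in that order, and had 0 counts in the other 4 libraries.

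No proteasome gene differed between KO and WT past the test. Of the 41 members, 14 passed the filter on low counts and were tested with edgeR's quasi-likelihood test, and 0 had a Benjamini-Hochberg adjusted p under 0.05. The background was the same: 0% of the 5320 genes tested passed, and the lowest adjusted p of any gene was 0.917. At an unadjusted p under 0.05 there were 2 members, Psma4 and Psmc1, both lower in KO, where 3.05% of all tested genes were at that level and lower, and 1.58% at that level and higher. DESeq2 and limma-voom also called 0 members, and each placed 2 of the 14 at an unadjusted p under 0.05. Over all 5320 genes the share at that level in either direction was 4.62% by edgeR, 1.80% by DESeq2 and 4.40% by limma-voom. Of the 14, 10 were lower and 4 higher in KO, and the median of their log2 fold changes (KO over WT) was -0.18, while 49.7% of all tested genes were lower and their median was 0.0019. The remaining 27 members had at most 16 counts in any library, and 25 of the 41 had at most 10 in every library. The 14 tested were 34.1% of the members. Among all genes, 32.2% of those with a count and 21.8% of all symbols were tested.

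**Figure D1:**
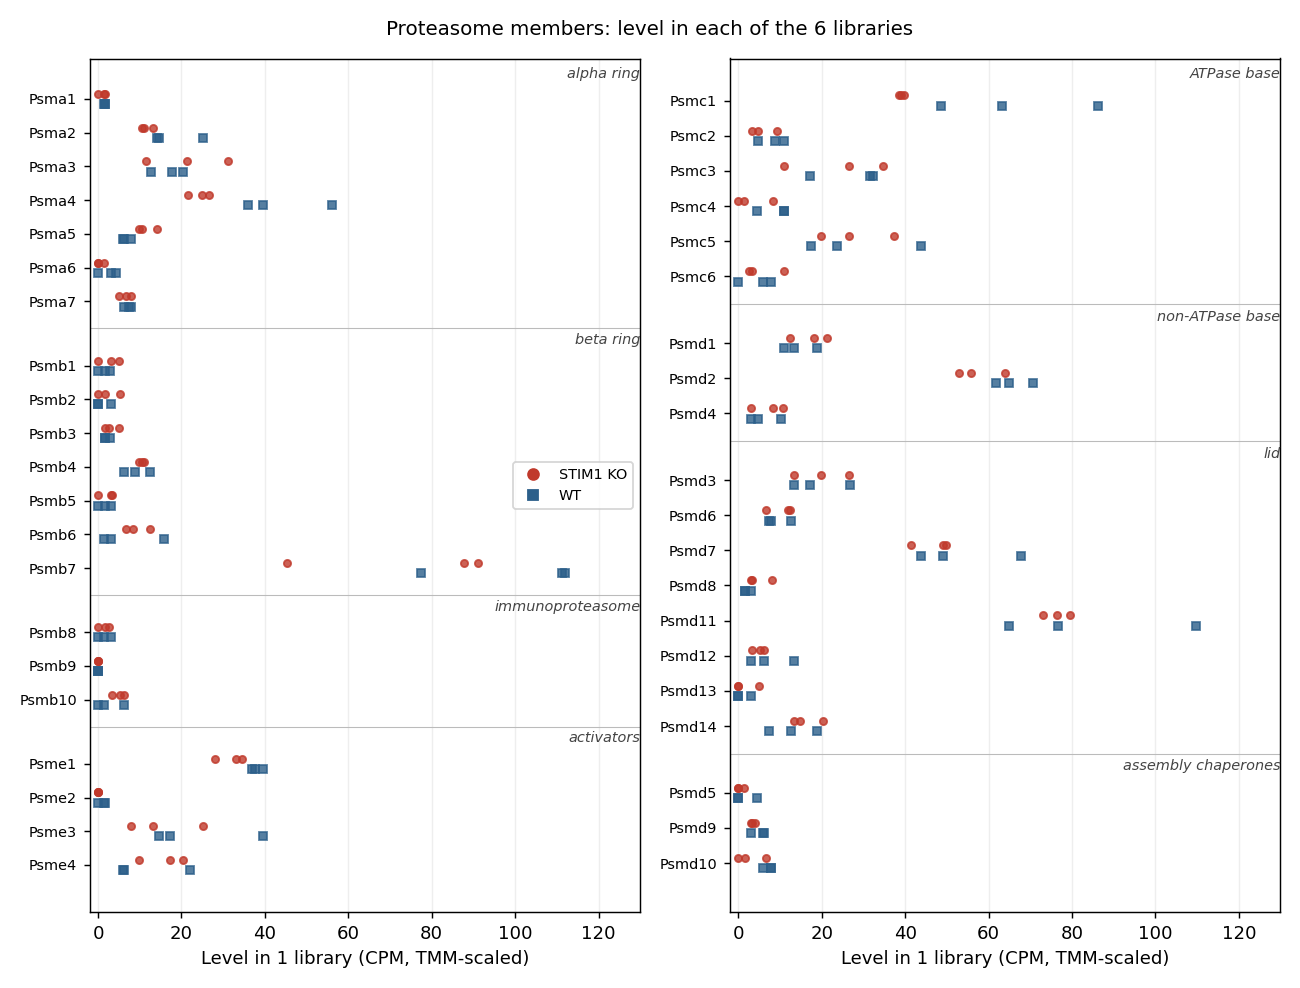
Level of each of the 41 proteasome genes in each library, in TMM-scaled CPM (horizontal axis), by role; circles are the 3 STIM1 KO libraries and squares the 3 WT libraries. Most members lie below 20 CPM; all circles lie left of all squares in Psma2, Psma4, Psmc1 and Psme1, and right of them in Psma5 and Psmd8.

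Among the alpha subunits Psma4 and Psma3 were tested. Psma4, whose tail helps to close the gate of the core, had 20, 16 and 13 counts in KO, against 23, 25 and 38 counts in WT. Its level averaged 24.3 ± 2.57 CPM in KO and 43.9 ± 10.6 CPM in WT (SD, n = 3 each). All KO libraries lay below all WT libraries, and WT replicate 3 stood highest. The log2 fold change was -0.84 with a standard error of 0.29, and the edgeR adjusted p was 0.917. The unadjusted p of 0.00872 was 0.0672 without WT replicate 3, 1 of the 2 libraries with Y-linked counts, and 0.133 without both of these. Psma3 had 16, 20 and 7 counts in KO, against 13, 8 and 12 in WT, with a log2 fold change of 0.34 (SE 0.40). Its KO libraries spread on both sides of the WT libraries.

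The start of Psma4 on chromosome 9 (54950790 to 54958030, plus strand, GRCm38) lies inside AY074887, a gene annotated on the minus strand, and both have 114 bases of exon in common. AY074887 had 99, 98 and 131 counts in KO, against 74, 102 and 119 in WT, more than Psma4 in every library. Its log2 fold change was 0.14 (SE 0.21), opposite in sign to that of Psma4. How much of either count came from the shared exon was not tested. The promoter windows below, from 250 bases before to 50 after the start, come from the RefSeq table on build GRCm38.p6. They are shown for 3 members that begin next to or inside a gene of the opposite strand, with capitals marking exon that both genes share.
Psma4 (chr9:54950609-54950908, plus strand): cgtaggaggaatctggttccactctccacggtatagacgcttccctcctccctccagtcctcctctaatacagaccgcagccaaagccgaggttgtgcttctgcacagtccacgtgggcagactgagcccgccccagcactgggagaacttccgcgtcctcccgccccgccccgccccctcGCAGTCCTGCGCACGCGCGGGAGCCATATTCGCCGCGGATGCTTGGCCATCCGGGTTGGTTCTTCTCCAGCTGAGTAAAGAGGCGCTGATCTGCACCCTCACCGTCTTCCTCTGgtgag
Psmd13 (chr7:140882144-140882443, plus strand): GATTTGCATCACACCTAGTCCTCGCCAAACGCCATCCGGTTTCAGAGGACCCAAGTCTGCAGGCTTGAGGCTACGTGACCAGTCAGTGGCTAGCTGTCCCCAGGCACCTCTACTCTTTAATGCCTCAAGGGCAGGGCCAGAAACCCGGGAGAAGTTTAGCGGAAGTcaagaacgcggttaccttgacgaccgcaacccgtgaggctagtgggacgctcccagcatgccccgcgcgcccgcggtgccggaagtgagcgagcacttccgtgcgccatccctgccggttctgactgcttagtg
Psmb9 (chr17:34187281-34187580, minus strand): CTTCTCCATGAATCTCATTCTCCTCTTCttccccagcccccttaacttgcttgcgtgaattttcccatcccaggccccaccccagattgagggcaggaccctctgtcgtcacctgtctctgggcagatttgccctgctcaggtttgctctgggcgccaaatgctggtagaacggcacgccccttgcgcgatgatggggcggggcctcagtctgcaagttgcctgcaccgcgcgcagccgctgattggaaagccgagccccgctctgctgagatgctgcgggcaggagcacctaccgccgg

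In the Psma4 window all 114 shared bases are visible, on both sides of the RefSeq start, which lies inside them. In the Psmd13 window 166 of the 342 bases shared with Sirt3, a mitochondrial deacetylase, lie upstream of the RefSeq start. In the Psmb9 window 28 of the 212 bases shared with Tap1, a subunit of the peptide transporter for antigen presentation, stand at the far upstream end.

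Of the other alpha subunits, Psma2 had 8, 7 and 8 counts in KO, against 16, 9 and 10 in WT. Psma5 had 8, 9 and 6 counts in KO, against 4, 5 and 4 in WT. Neither pair of groups overlapped in CPM, in opposite directions, and exact two-sided permutation tests gave p = 0.1 for both, the smallest that 3 against 3 allows. Psma5 shares 60 bases of exon with 1700010K24Rik, a transcript on the opposite strand that was not analysed here. Psma7 had 3 to 5 counts in KO and 4 to 5 in WT, Psma6 had 0 to 1 in KO and 0 to 3 in WT, and Psma1 had 0 to 1 in KO and 1 in each WT library. Psma1, Psma6 and Psma7 were read at too few counts for a difference to be detectable.

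Psmb7, the trypsin-like active site, had the highest level of the beta subunits per kilobase of exon (25.6 CPM per kb over the 6 libraries). It had 66, 29 and 55 counts in KO, against 71, 49 and 76 in WT, or 74.7 ± 25.6 CPM in KO and 100.3 ± 19.7 CPM in WT (SD, n = 3 each). The groups overlapped, since KO replicates 1 and 3 lay above WT replicate 2 in CPM. The log2 fold change was -0.42 (SE 0.25), with an edgeR adjusted p of 0.987. Without KO replicate 2, the lowest library, it was -0.18. Psmb7 shares 405 bases of exon with Nek6, a mitotic kinase gene on the opposite strand of chromosome 2, which had 1 to 4 counts in KO and 1 to 3 in WT. The other active sites stood at 2.07 (Psmb5) and 4.26 (Psmb6) CPM per kb on the same scale. Psmb5, the chymotrypsin-like site, had 0, 2 and 2 counts in KO, against 2, 1 and 0 in WT. Psmb6, the caspase-like site, had 5, 8 and 5 counts in KO, against 2, 10 and 1 in WT. For both genes the WT libraries spread on both sides of the KO libraries or overlapped them at counts of 0 to 2. No difference was detectable at so few counts. Psmb4, a structural subunit, had 8, 7 and 6 counts in KO and 8, 4 and 6 in WT, and Psmb1, Psmb2 and Psmb3 had at most 4 counts in any library.

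The transcription factor Nfe2l1 is known to raise proteasome genes after proteasome inhibition through antioxidant response elements in their promoters. The core letters of that element, TGACNNNGC on either strand, were found in 6 of the 38 promoter windows available for 35 members (15.8%) and in 12.4% of all 32851 windows of the same length. The members with a match were Psmb5, Psmb6, Psmc6, Psmd9, Psmd12 and Psme4, and in Psmd9 the match shares bases with a GC box. The GC box GGGCGG was found in 60.5% of the member windows and 35.7% of all windows, and the CCAAT box in 34.2% of the member windows and 37.4% of all windows. Psmb1, Psmb2, Psmb7, Psmc3, Psmd3 and Psmd7 were not searched here. The windows of Psmb5 and Psmb6 are printed with the matching letters in capitals.
Psmb5 (chr14:54617946-54618245, minus strand): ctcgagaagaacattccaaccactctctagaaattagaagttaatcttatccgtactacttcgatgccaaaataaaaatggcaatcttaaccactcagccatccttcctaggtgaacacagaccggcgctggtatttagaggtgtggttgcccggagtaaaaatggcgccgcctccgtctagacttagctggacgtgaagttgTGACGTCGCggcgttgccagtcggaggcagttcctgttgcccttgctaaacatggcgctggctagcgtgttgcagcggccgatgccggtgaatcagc
Psmb6 (chr11:70525107-70525406, plus strand): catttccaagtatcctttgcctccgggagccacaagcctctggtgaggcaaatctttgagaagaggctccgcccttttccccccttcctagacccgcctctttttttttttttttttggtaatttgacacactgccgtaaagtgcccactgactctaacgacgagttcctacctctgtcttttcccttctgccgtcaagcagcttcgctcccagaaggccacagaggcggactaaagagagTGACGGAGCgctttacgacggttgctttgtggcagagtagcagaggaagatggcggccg

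A match of letters describes the window and is no evidence of binding. The first letter of the match lies 47 bases before the RefSeq start in Psmb5 and 9 bases before it in Psmb6. Nfe2l1 itself averaged 52.9 ± 14.3 CPM in KO and 65.4 ± 10.7 CPM in WT (SD, n = 3 each). Its log2 fold change was -0.29 (SE 0.25) with an edgeR adjusted p of 0.987.

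The immunoproteasome subunits, which replace the catalytic beta subunits after interferon, were at or near 0. So were the beta subunits Psmb1, Psmb2, Psmb3 and Psmb5, with at most 4 counts in any library. Psmb9 had 0 counts in all 6 libraries, which allows up to 3 counts, or 3.99 to 4.97 CPM in the KO libraries and 4.42 to 4.74 CPM in the WT libraries. Psmb8, which shares exon with Gm20496, a transcript not analysed here, had 2, 0 and 1 counts in KO, against 0, 2 and 1 in WT. Psmb10 had 4, 4 and 2 counts in KO, against 4, 0 and 1 in WT. No difference was detectable at such counts. Tap1, the opposite-strand neighbour of Psmb9, had 2 to 3 counts in KO and 1 to 3 in WT. The 12 interferon response genes read beside them summed to 192 to 246 CPM in KO and 166 to 241 CPM in WT, and 1 of them, Tapbp, reached the test.

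The ATPases of the base were the role group in which the summed level of KO lay lowest against WT, after the assembly chaperones with their few counts. The 6 genes summed to 105, 103 and 109 CPM in KO, against 171, 134 and 124 CPM in WT, a ratio of the means of 0.739. Every KO sum lay below every WT sum. Psmc1, the ATPase whose tail helps to open the core's gate, had the highest level of the group. It had 29, 25 and 24 counts in KO, against 55, 40 and 33 in WT. Its level averaged 39.1 ± 0.616 CPM in KO and 66.0 ± 19.0 CPM in WT (SD, n = 3 each). The KO libraries lay within a narrow band below all WT libraries, while the WT libraries were spread widely with WT replicate 1 on top. With 24 to 29 counts in each of 3 KO libraries, this band does not measure how precise the KO level is. The log2 fold change was -0.75 (SE 0.26), with an unadjusted p of 0.0096 and an edgeR adjusted p of 0.917. Without WT replicate 1 the log2 fold change was -0.52 and the edgeR unadjusted p 0.0778. All 6 ATPases summed to a mean of 106 CPM in KO and 143 CPM in WT. The mean level in KO minus that in WT was -27.0 CPM for Psmc1, the largest difference of the group. It was -5.62 CPM for Psmc4, -3.01 for Psmc3, -2.44 for Psmc2, -0.338 for Psmc5 and 1.05 for Psmc6. Sums of the group without Psmc1 were not computed, so the separation of the sums is not credited to Psmc1 alone. Psmc1 (chromosome 12, 100110154 to 100123405, plus strand, GRCm38) shares no exon with an annotated gene on the opposite strand.

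Psmc5 had 20, 24 and 12 counts in KO, against 28, 11 and 16 in WT, a log2 fold change of -0.012 (SE 0.36). Psmc3 had 20, 7 and 21 counts in KO, against 11, 20 and 22 in WT, a log2 fold change of -0.18 (SE 0.38). In both genes the groups overlapped almost fully, and the sign of the fold change turned when a single library was left out. Psmc3 shares 215 bases of exon with Slc39a13, a zinc transporter gene on the opposite strand, which had 7 to 11 counts in KO and 6 to 11 in WT. Psmc4 had 1, 0 and 5 counts in KO and 7, 7 and 3 in WT. Psmc2 had 2 to 7 counts in KO and 3 to 7 in WT, and Psmc6 2 to 7 in KO and 0 to 5 in WT.

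Both tested members of the non-ATPase base are scaffolds. Psmd2 had 42, 41 and 32 counts in KO, against 45, 41 and 42 in WT. It averaged 57.6 ± 5.66 CPM in KO and 65.8 ± 4.40 CPM in WT (SD, n = 3 each). The log2 fold change was -0.19 (SE 0.22). The highest KO library lay above the lowest WT library, so the groups overlapped. Psmd1 had 16, 8 and 11 counts in KO, against 12, 7 and 9 in WT, a log2 fold change of 0.28 (SE 0.40). This value was 0.085 without KO replicate 1, 0.13 without WT replicate 2, 0.45 without KO replicate 2 and 0.50 without WT replicate 1. Psmd1 shares 252 bases of exon with Htr2b, a serotonin receptor gene, which had 6, 3 and 5 counts in KO and 13, 5 and 5 in WT. Psmd4, a ubiquitin receptor, had 8, 2 and 5 counts in KO and 3, 2 and 7 in WT.

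The lid summed to 174, 195 and 174 CPM in KO, against 204, 172 and 192 CPM in WT, a ratio of 0.956, and the groups overlapped. Psmd11, which clamps the lid to the core, had 55, 49 and 48 counts in KO, against 70, 41 and 52 in WT, a log2 fold change of -0.13 (SE 0.23). Psmd7, the inactive partner of the deubiquitinase, had 37, 32 and 25 counts in KO, against 28, 31 and 46 in WT, a log2 fold change of -0.19 (SE 0.25). In both, the KO libraries fell inside or next to the range of the WT libraries, and 1 WT library stood above the rest. Psmd3 had 10, 17 and 12 counts in KO, against 11, 17 and 9 in WT, a log2 fold change of 0.045 (SE 0.39). Psmd14, the deubiquitinase that removes ubiquitin chains, was not tested, with 10, 13 and 9 counts in KO and 8, 12 and 5 in WT. Psmd6 had 4 to 9 counts in KO and 5 to 8 in WT, and Psmd12 had 2 to 4 in KO and 2 to 9 in WT.

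Psmd8 had 6, 2 and 2 counts in KO, against 1, 1 and 2 in WT. Its groups did not overlap in CPM, although the lowest KO count and the highest WT count were both 2. Psmd13 had 0, 0 and 3 counts in KO, against 0, 0 and 2 in WT, while Sirt3, with which it shares exon, had 26, 25 and 21 counts in KO and 29, 22 and 29 in WT. The assembly chaperones of the base leave before the particle is complete. Psmd10 had 5, 0 and 1 counts in KO and 5, 5 and 4 in WT. Psmd9, which shares exon with Gm26745, a transcript not analysed here, had 3, 2 and 2 counts in KO and 4, 2 and 4 in WT, and Psmd5 had 0 to 1 in KO and 0 to 3 in WT.

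Activators open the core without the regulatory particle. Psme1, which forms a ring with Psme2, had 26, 18 and 20 counts in KO, against 24, 25 and 25 in WT. It averaged 31.9 ± 3.41 CPM in KO and 38.0 ± 1.39 CPM in WT (SD, n = 3 each). The KO libraries again lay below all WT libraries, yet the log2 fold change of -0.25 (SE 0.26) was smaller than its standard error and the edgeR adjusted p was 0.995. Psme1 shares 14 bases of exon with Emc9 on the opposite strand, which had 25, 21 and 19 counts in KO and 24, 24 and 26 in WT. The partner subunit Psme2 had 0 counts in each KO library and 1, 0 and 1 in WT. Psme3, a nuclear activator, had 19, 5 and 8 counts in KO, against 11, 25 and 10 in WT, a log2 fold change of -0.57 (SE 0.46). Psme4, a large activator, had 13, 13 and 6 counts in KO, against 14, 4 and 4 in WT, a log2 fold change of 0.49 (SE 0.50). In these 2 genes a single WT library lay above all KO libraries. The value of Psme3 was -0.0094 without WT replicate 2, -0.27 without KO replicate 2 and -1.17 without KO replicate 1. That of Psme4 was 1.35 without WT replicate 1, 0.28 without KO replicate 2, 0.22 without WT replicate 2 and 0.16 without WT replicate 3.

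**Figure D2:**
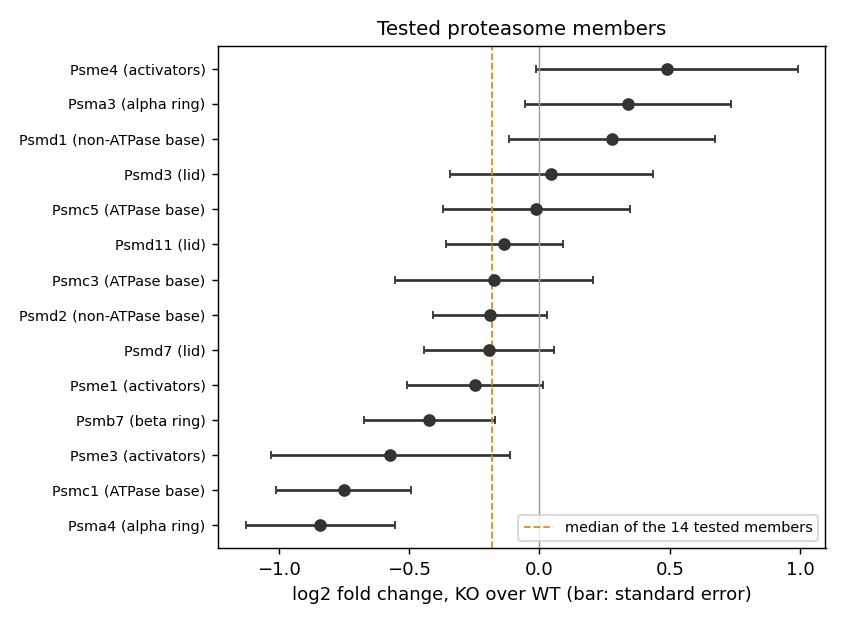
The log2 fold change of KO over WT for the 14 tested proteasome genes (points) with its standard error (bars); the dashed line is their median of -0.18. Psma4 at -0.84 and Psmc1 at -0.75 lie farthest from 0.

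Counting genes by overlap, the groups did not overlap with KO lower in 3 of the 14 tested members (Psma4, Psmc1 and Psme1), against 6.11% of all tested genes, and with KO higher in 0 of 14, against 4.62%. Over all 41 members there were 4 with KO lower (Psma2 added) and 2 with KO higher (Psma5 and Psmd8), against 5.08% and 3.56% in the same order among the 16540 genes with any count.

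Summed over all 41 members, the level was 655, 608 and 616 CPM in KO, against 801, 674 and 715 CPM in WT. The KO libraries averaged 626 ± 25.2 CPM and the WT libraries 730 ± 65.0 CPM (SD, n = 3 each), a ratio of 0.858. Every KO sum lay below every WT sum. On library sizes of all gene counts without TMM scaling, the highest KO value was 644.6 and the lowest WT value 644.8 CPM, so the groups then nearly touched. Without Psma4 and Psmc1, a pair chosen after their values were seen, the sums were 544 to 590 CPM in KO and 571 to 679 CPM in WT, and the groups overlapped. The Purkinje marker sum also lay lower in every KO library than in any WT library. The margin was narrow, with 2657 CPM the highest in KO and 2665 CPM the lowest in WT. The sums of the other marker lists overlapped. Median log2 fold changes of tested markers were -0.22 for Purkinje cells, -0.22 for astrocytes and Bergmann glia, and -0.19 for interneurons. They were -0.12 for granule cells and -0.042 for oligodendrocytes. The part of these cell types in the proteasome sums was not tested. In the other roles the sums of the groups overlapped: the alpha ring had 76.7 ± 13.0 CPM in KO and 96.7 ± 13.0 CPM in WT, and the beta ring 105 ± 25.0 CPM in KO and 122 ± 14.5 CPM in WT. The non-ATPase base had 82.2 ± 4.74 CPM in KO and 86.2 ± 7.52 CPM in WT, and the activators 56.1 to 77.1 CPM in KO and 58.9 to 85.4 CPM in WT. The assembly chaperones had 6.68 ± 4.66 CPM in KO and 13.8 ± 2.58 CPM in WT, and the immunoproteasome 6.39 ± 1.51 CPM in KO and 4.13 ± 1.86 CPM in WT (SD, n = 3 each), both on a handful of counts.

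**Figure D3:**
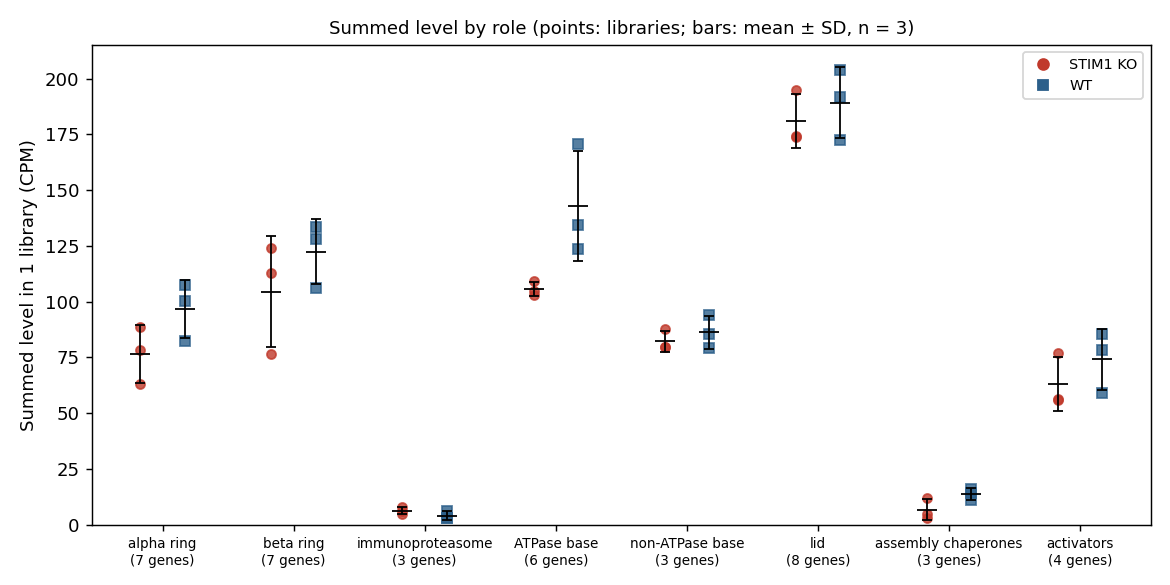
Summed level of the genes of each role in each library, in CPM; circles are STIM1 KO, squares WT, and bars the mean ± SD of 3 libraries. The ATPase base separates the groups, at 103 to 109 CPM in KO and 124 to 171 CPM in WT. Of its genes Psmc1 has the largest difference in mean level. The lid, at 174 to 195 CPM in KO and 172 to 204 CPM in WT, does not separate them.

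Per kilobase of annotated exon, the members spanned a wide range. On this scale, averaged over the 6 libraries, Psmc1 (27.2 CPM per kb), Psmb7 (25.6), Psmd7 (22.2) and Psmc5 (20.2) stood highest, while Psmd13 (0.391), Psme2 (0.287), Psmd5 (0.133) and Psmb9 (0) stood lowest. The median member had 2.39 CPM per kb, 28 of the 41 lay above the median of protein-coding genes with a count (1.42), and Psmc1 was at percentile 92.7 of those genes. Psmb7, Psmd11, Psmd2, Psmc1 and Psmd7 together held 48.9% of all member counts. Among the 9 members that share at least 50 bases of exon with an opposite-strand gene the median was 2.18 CPM per kb, and among the other 32 it was 2.58. Over all genes with a count these medians were 3.15 with such an overlap and 1.17 without. Members with an overlap stood both near the top (Psmb7, Psma4) and near the bottom (Psmb8, Psmb9, Psmd13) of the order.

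**Figure D4:**
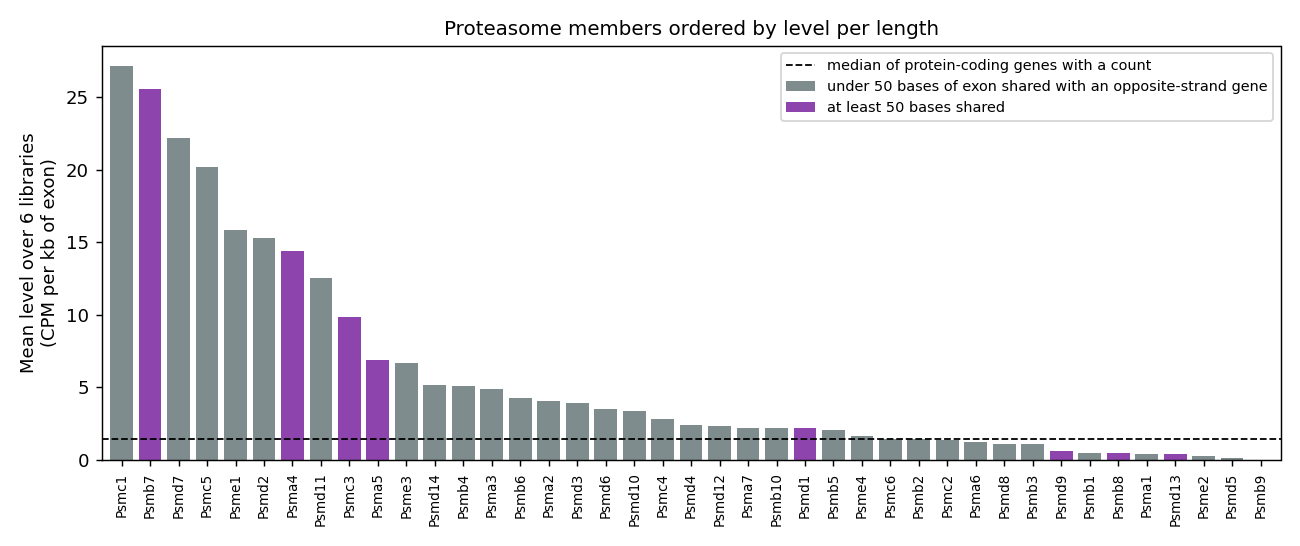
Mean level over the 6 libraries per kilobase of exon (vertical axis) of the 41 proteasome genes in falling order; purple bars share at least 50 bases of exon with an opposite-strand gene, and the dashed line is the median of protein-coding genes with a count, 1.42 CPM per kb. Psmc1 and Psmb7 lie above 25 and Psmb9 at 0.

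Other genes of the ubiquitin and proteasome pathway were read from a list of 43 symbols, of which 39 were in the files and 18 were tested. Of these 18, 10 were lower and 8 higher in KO, and 0 passed the test. The median of their log2 fold changes was -0.045. The lowest unadjusted p-values on the lower side were those of Ubqln1, a shuttle that brings ubiquitinated proteins to the proteasome, at -0.53 (SE 0.25), and Vcp, the segregase that extracts ubiquitinated proteins, at -0.59 (SE 0.29). Vcp averaged 27.8 ± 8.91 CPM in KO and 42.2 ± 5.31 CPM in WT (SD, n = 3 each), and its groups did not overlap. AI314180, at -0.68 (SE 0.39), also had groups that did not overlap. Among the 18 tested genes this held with KO lower in 2 and with KO higher in 0, against 6.11% and 4.62% of all tested genes. On the higher side the lowest unadjusted p-values were those of Nfe2l2, a regulator of antioxidant genes, at 0.57 (SE 0.30), and Rps27a, a ubiquitin fusion gene, at 0.34 (SE 0.30). In 2 genes that neurons are known to express strongly, counts were near 0. Uchl1, a ubiquitin hydrolase, had 2, 0 and 4 counts in KO and 2, 0 and 5 in WT, and Ubb, a polyubiquitin gene, had 5, 9 and 9 counts in KO and 2, 4 and 5 in WT; both were chosen after their values were seen.

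The authors' deposited edgeR table runs WT over KO, and its log2 values were 0.82 for Psma4 (p = 0.00739) and 0.73 for Psmc1 (p = 0.00892), both positive where WT is higher. The authors' deposited DESeq table gave a fold of KO over WT of 0.566 for Psma4 (p = 0.0134) and 0.606 for Psmc1 (p = 0.0152). These p-values are unadjusted, and in the authors' deposited tables Psma4 and Psmc1 were the only 2 of the 41 members under 0.05. Over all genes, 1.90% of 24420 in the authors' deposited edgeR table and 1.86% of the 16540 with a p in the authors' deposited DESeq table were under 0.05. The 24420 include genes with 0 counts in every library, such as Psmb9, and the 16540 do not. These shares therefore have unlike denominators, and the edgeR share would be higher over genes with a count.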

How the data were processed

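The authors made the count files from single-end reads of TruSeq mRNA libraries, per the labels' protocols. The submitters' processing notes name TopHat, HTSeq 0.9.1, DESeq, edgeR and the mouse build GRCm38 (mm10). The deposited values are whole-number counts per gene symbol, and 5 HTSeq rows that name no gene, holding 98.8% of uniquely aligned reads as no feature, were left out. Used here for description alone were the deposited comparisons: DESeq's normalised mean signal, fold ratio and unadjusted p-value, and edgeR's log2 ratio, log2 CPM and unadjusted p-value, per the file headers.

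KO was compared with WT by the quasi-likelihood test of edgeR 4.0.16 (R 4.3.3) without covariates. TMM factors were 0.954 to 1.04, filterByExpr kept genes at a minimum count of 10, and p-values were Benjamini-Hochberg adjusted over the 5320 genes tested, with a threshold of 0.05. The standard error is that implied by the F statistic. CPM uses TMM-scaled counts of the tested genes. A list is described by counts and its median, without a test. Exon lengths and overlaps of at least 50 bases were taken from the M21 release of GENCODE (mouse, GRCm38), which matched 95.7% of symbols and may differ from the annotation counted. The fit was checked on simulated counts whose set changes were larger than any seen in the tested members. That check does not show how often changes of the size seen here are detected. The members, lists and tests were chosen with earlier results of these data known. Values per library are given by rule for the catalytic subunits and activators, and in each role for the 2 tested members of lowest p and the 2 of highest level; other members were added. Subunit genes have processed copies in the genome, and reads that aligned to several places (15484582 to 18383204 per library) were not counted. The series text calls the 3 samples of each genotype biological replicates. The p-values set the difference between genotypes against the variation between these samples. Alternatives were DESeq2 1.42.0, limma-voom 3.58.1, other normalisations, filters and thresholds, a replicate block, leaving out libraries and splitting genes by opposite-strand overlap. Same-numbered samples were not taken as pairs.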

Additional observations from a re-analysis of the deposited data

Results flagged for a closer look

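A mean of 98.8% of uniquely aligned reads per library was assigned to no gene and entered no comparison, while the 41 members held 372 to 493 counts in KO libraries and 426 to 511 in WT libraries. The files give only the total of these reads.

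Psmb11, the beta subunit known from the thymus and outside the 41 members, had 28, 18 and 11 counts in KO, against 12, 8 and 16 in WT, with a mean count of 15.5 over the 6 libraries, above the 3 counts that a 0 allows. Its catalytic relative Psmb5, next to it on chromosome 14, had at most 2 counts in any library. The groups of Psmb11 overlapped, and the log2 fold change was 0.61 (SE 0.36) with an edgeR adjusted p of 0.987. It was chosen after its value was seen, and the strand counted is not given for it either.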

How the results depend on the processing

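The number of proteasome members called was 0 in every alternative run: RLE, upper quartile, scaling to all uniquely aligned reads, no filter, a CPM filter, DESeq2, limma-voom, the replicate block, each library left out, both libraries with Y-linked counts left out, both classes of overlap and an adjusted p under 0.1. The median of the tested members stayed below 0 in all 19 alternatives. In 1 of them, without the assembly chaperones, it could not change, since 0 of those 3 genes were tested. The median ranged from -0.21 to -0.14 when each library was left out. It was -0.068 with no filter, where 40 members entered, 21 lower and 19 higher, and -0.34 among genes with an opposite-strand overlap alone, where 4 members were tested. Among genes without such an overlap it was -0.089, with 10 members tested. It was -0.16 without Psma4 and Psmc1, an alternative chosen after the data were examined. With the replicate block the median was -0.17 and 0 genes were called. The deviations of same-numbered samples correlated at 0.143, 0.0795 and 0.122, and every sample correlated best with its own number. The count of all genes called was 6 with no filter, 1 without the Y-linked pair of libraries, from 0 to 1 when single libraries were dropped, and 0 otherwise. The cause was not tested.

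Of the 14 tested members, 8 kept their sign in every alternative, among them Psma4 (-0.97 to -0.55) and Psmc1 (-0.95 to -0.52). The sign of Psmc5 was positive with no filter (0.012), limma-voom (0.049), without the Y-linked pair (0.041) and among genes without overlap (0.064), and Psmc5 ranged from -0.27 to 0.44 leaving out each library. Psmd3 was at -0.010 with scaling to all uniquely aligned reads, -0.18 without the Y-linked pair, and between -0.23 and 0.37 when single libraries were dropped. Psmd7 was at 0.085 without the Y-linked pair and ranged from -0.32 to 0.0090 leaving out each library. With single libraries dropped, Psmb7 ranged from -0.58 to -0.18, Psmd1 from 0.085 to 0.50, Psme3 from -1.17 to -0.0094 and Psme4 from 0.16 to 1.35. Psma3 ranged from -0.017 to 0.61, Psmc3 from -0.50 to 0.15 and Psmd11 from -0.28 to 0.10 in the same way; the cause was not tested. Low gene counts limit all of this: 27 of 41 members lay under the filter. They are no trait of the members, of which 34.1% were tested, against 32.2% of all genes with a count.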
